A study of Mus musculus with 6 samples.

Results

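The 9 genes described here encode proteins that bind the enzyme OGT or work with it on chromatin: Hcfc1, Tet2, Tet3, Bap1, Sin3a, Sin3b, Asxl1, Trak1 and Trak2. They were chosen by name as known partners of the OGT protein, at a time when earlier results of these data were known. All 9 have a row among the 12027 genes of the count table. OGT attaches the sugar O-GlcNAc to serines and threonines of nuclear and cytosolic proteins, and OGA removes it. OGT reaches its targets largely through partners: TET proteins and HCF1 hold it at promoters, SIN3 proteins bring it to repressed genes, and the TRAK adaptors bring it to mitochondria. OGT also cuts HCF1 into its mature form, and BAP1 is a deubiquitinase that travels with HCF1, OGT and ASXL1. All of this is known of the proteins; the values below are transcript levels.

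RNA was taken from whole liver. The mice were C57BL/6 males aged 8 weeks that had undergone partial hepatectomy (PHX), an operation after which the remaining liver grows back. The 6 groups were OGA-KO (genotype OGA-/-) and control (OGAfl/fl), each at 14 and at 28 days, and OGT-KO (genotype OGT-/y) and control (OGTfl/y), each at 28 days. The design text calls both knockouts hepatocyte-specific, and what drives the deletion is not given in the sources used here. Each group is 1 library of RNA pooled from 3 mice, and the spread between mice of a group cannot be seen.

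Levels are CPM, counts scaled to a common library size, here with TMM effective library sizes, which line up the bulk of genes between libraries. Ratios are log2 of such CPM with a prior count of 2, followed by a 95% exact Clopper-Pearson interval that covers counting error only. "Rose" and "fell" are kept for genes with an edgeR adjusted p under 0.05 in a fit of all 6 libraries. That fit has 1 residual degree of freedom, from the OGA-KO pairs at both times, and borrows its spread for the OGT libraries, which have no other source of one.

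Library totals ran from 20433100 to 29327722 counts. Oga stood at 10.4 and 12.8 CPM in the OGA-KO libraries against 62.2 and 67.2 in their controls. Ogt had 1205 counts in OGT-KO and 1339 in its control, a log2 ratio of -0.43 (-0.54 to -0.31) that was -0.06 by library totals, so it is no check of that label; reads outside a deleted part would still be counted. The OGT-KO library also held more RNA of several marker groups of cells other than hepatocytes, and of cell division genes, which are not markers of a cell type. Its 8 matrix and stellate cell markers with a row (of 10 listed) summed to 1903 CPM, against 159.6 in OGT control and 83.7 to 144.0 in the OGA libraries. The 9 macrophage markers (of 10) summed to 1012 against 255 and 139.0 to 172, the 7 cholangiocyte markers (of 8) to 495 against 101 and 68.7 to 84.4, and the 9 cell division genes (of 10) to 252 against 53.8 and 30.9 to 38.4. The 8 endothelial markers summed to 307 against 201 and 215 to 234, but moved both ways: Stab1 (932 to 4498 counts) and Lyve1 rose, while Stab2 (-0.69), Kdr (-0.70) and Clec4g (-0.63) fell by edgeR. The 4 lymphocyte and neutrophil markers with a row (of 8) summed to 41.9 against 11.7 and 6.99 to 9.99. The 10 hepatocyte markers summed to 52432 CPM against 76256 in control. By edgeR 8 of them fell and 0 rose, while Tat and Apoa1 did not pass. Their log2 ratios ran from -3.77 (Slc10a1) to 0.16 (Tat), with a median of -0.89, or -0.52 by library totals. For Alb, the marker with the most counts, the log2 ratio was -0.51, or -0.14 by library totals. No marker with a row was at 0 in any library, and Cd3e, Cd8a, Cd79a and Ms4a1 had no row. The part of these shifts in the results below was not tested; in bulk RNA, fewer cells of a type and less RNA per cell cannot be told apart.

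The promoters of 4 members are shown because they bracket the response described below: Hcfc1, Asxl1 and Trak2 rose in OGT-KO and Trak1 fell. Tet2 rose as well, and its promoter is not shown. Each line gives the 250 bases before the RefSeq start site (build GRCm38.p6, most upstream site where a gene has several), read along the gene. Capitals mark matches, on either strand, to short motifs of factors that work with HCF1 or at housekeeping promoters.
Hcfc1, chrX:73966358-73966607, minus strand: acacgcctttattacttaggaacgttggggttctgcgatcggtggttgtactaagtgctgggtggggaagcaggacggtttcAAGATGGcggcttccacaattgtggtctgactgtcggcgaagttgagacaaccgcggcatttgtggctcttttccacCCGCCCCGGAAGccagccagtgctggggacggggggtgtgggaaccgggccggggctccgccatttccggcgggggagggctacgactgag
Asxl1, chr2:153345580-153345829, plus strand: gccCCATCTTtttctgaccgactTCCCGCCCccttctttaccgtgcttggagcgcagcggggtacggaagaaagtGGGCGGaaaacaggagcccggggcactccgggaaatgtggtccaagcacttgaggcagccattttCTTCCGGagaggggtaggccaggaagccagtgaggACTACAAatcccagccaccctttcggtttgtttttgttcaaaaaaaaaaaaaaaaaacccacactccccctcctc
Trak2, chr1:58973483-58973732, minus strand: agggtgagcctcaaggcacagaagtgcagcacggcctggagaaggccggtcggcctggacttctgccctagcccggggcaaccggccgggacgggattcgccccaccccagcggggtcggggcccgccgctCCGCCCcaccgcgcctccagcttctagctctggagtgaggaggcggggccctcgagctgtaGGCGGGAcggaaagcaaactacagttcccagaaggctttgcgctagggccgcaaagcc
Trak1, chr9:121297252-121297501, plus strand: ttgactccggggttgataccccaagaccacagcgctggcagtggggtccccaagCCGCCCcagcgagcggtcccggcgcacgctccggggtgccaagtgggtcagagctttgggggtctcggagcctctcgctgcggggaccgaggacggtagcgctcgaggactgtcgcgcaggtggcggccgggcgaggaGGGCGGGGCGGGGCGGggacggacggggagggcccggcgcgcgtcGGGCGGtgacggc

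The motifs were ACTACAA for THAP11 and ZNF143, CCGGAAG for GABPA and other ETS factors, AAGATGG for YY1, GGCGGGA for E2F and GGGCGG for SP1 and its relatives; GGCGGGA and GGGCGG can overlap. The 9 members have 13 start sites in the RefSeq table. GGGCGG was present at 11 of these 13 sites, with all 9 members represented, and at 32.7% of the 32851 start sites in the table. GGCGGGA was present at 5 member sites (9.75% of all sites), CCGGAAG at 2 (6.91%), AAGATGG at 2 (4.49%) and ACTACAA at 1 (2.81%). Asxl1 was the member whose window held all of these motifs, and Hcfc1 held the ETS, YY1 and SP1 motifs. Matches were exact, so actacag in the Trak2 line, which differs from ACTACAA in its last base, was neither marked nor counted. Member windows were 50.8% to 83.6% G and C, against a median of 52.4% over all sites. Such matches describe the letters in these windows and do not show that a factor binds there.

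The OGT-KO pair addresses which partner transcripts differ in liver labelled as lacking OGT in hepatocytes, 28 days after the operation. Hcfc1, Tet2, Asxl1 and Trak2 rose and Trak1 fell, while Tet3, Bap1, Sin3a and Sin3b did not pass the test. The background was broad: edgeR called 52.7% of 12026 genes tested in this comparison, 26.1% risen and 26.6% fallen. A count of 5 of 9 members is therefore near the background and does not set the members apart. Past 1.5-fold were 3 members higher and 0 lower, against 24.8% and 22.2% of 11803 genes with at least 1 CPM. The counting interval lay above 0 for 7 members and below it for 2, against 39.5% and 39.3% of genes. At 2-fold the count was 1 member higher, against 16.4% of genes. The median of the 9 ratios was 0.32, beside -0.0006 for all genes. By library totals the median of all genes moved by 0.37, and the members' median was 0.69 beside 0.37 for all genes. By that scaling edgeR called 7 members and 7196 of the genes tested, 5334 of them risen.

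**Figure D1:**
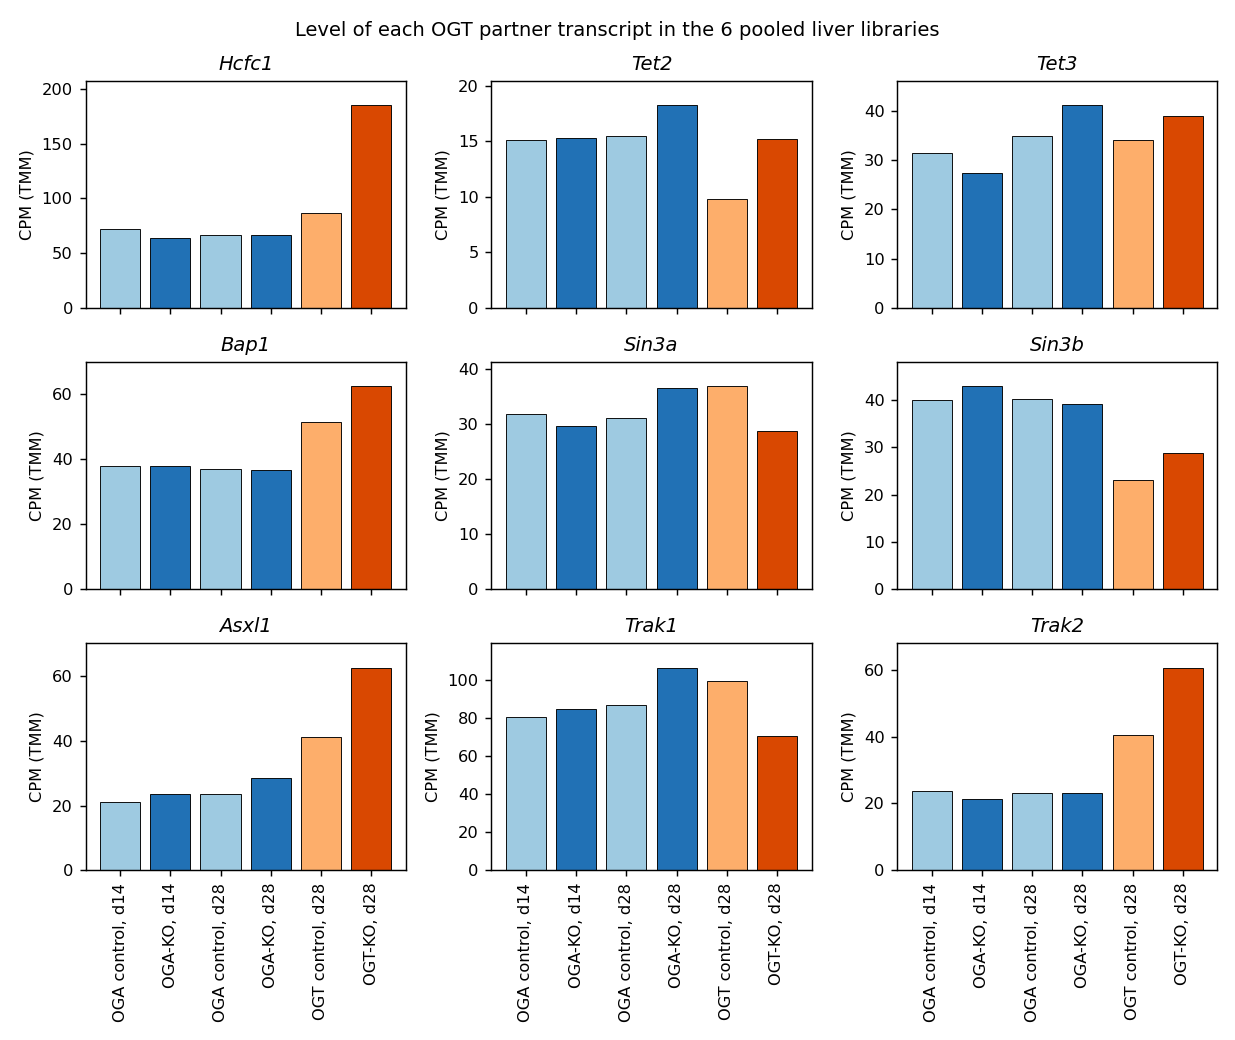
Each panel shows 1 member and each bar 1 library of pooled RNA, as CPM with TMM effective library sizes; y axes start at 0 and differ between panels, and there are no replicates. Hcfc1, Bap1, Asxl1 and Trak2 are highest in OGT-KO, and the OGT control bar stands above all 4 OGA bars for these genes.

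Hcfc1, the scaffold that links OGT to transcription factors and histone methyltransferases, had the largest difference. It stood at 64.2 and 71.8 CPM in OGA-KO and control at 14 days, 66.5 and 66.8 at 28 days, 185 in OGT-KO and 87.0 in OGT control. The OGT-KO library stood alone, with more than any other library, and the other 5 lay between 64.2 and 87.0. It had 5170 counts against 2009, a log2 ratio of 1.09 (1.01 to 1.16), and the edgeR effect was 1.09 with SE 0.11 and adjusted p = 0.000972. In the pair, 15% of genes had a higher ratio. Hcfc1 alone among the members passed under all 6 alternative fits of this effect, the weakest being that without the line term (edgeR adjusted p = 0.0194; the line term separates OGT from OGA mice).

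Asxl1, a cofactor of the BAP1 deubiquitinase, and Trak2, a motor adaptor of mitochondria, shared a pattern across the libraries. Asxl1 stood at 23.6 and 21.2 CPM in OGA-KO and control at 14 days, 28.5 and 23.7 at 28 days, 62.7 in OGT-KO and 41.2 in OGT control. Trak2 stood at 21.2 and 23.8, 23.1 and 23.0, and 60.7 and 40.5 CPM in the same order. For both genes the OGT control lay between the OGA libraries and OGT-KO. The share of all genes with this order was not counted. Both steps were broad: 27.1% of genes were past 1.5-fold between the controls at 28 days, and edgeR called 52.7% in OGT-KO. In OGT-KO the log2 ratio of Asxl1 was 0.61 (0.49 to 0.72; edgeR SE 0.10, adjusted p = 0.00624) and that of Trak2 was 0.58 (0.47 to 0.70; edgeR SE 0.11, adjusted p = 0.00914). Trak2 lay just under the 1.5-fold line and Asxl1 just above it. Neither call held with the DESeq2 Wald test (adjusted p = 0.168 and 0.204). In edgeR without a line term the effects were larger, 0.98 for Trak2, yet the adjusted p were 0.0977 and 0.105.

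Tet2 and Tet3 are dioxygenases that oxidise methylcytosine, and both bind OGT. Tet2 stood at 15.3 and 15.1 CPM in OGA-KO and control at 14 days, 18.2 and 15.5 at 28 days, 15.2 in OGT-KO and 9.83 in OGT control. The OGT control library was the low one, and the OGT-KO level fell inside the range of the OGA libraries. The log2 ratio of Tet2 in OGT-KO was 0.63 (0.39 to 0.87; edgeR SE 0.16, adjusted p = 0.0224) on 425 counts against 227. Without the line term, which sets OGT-KO against all controls, it was 0.19 with an edgeR adjusted p of 0.719, and the DESeq2 Wald test gave an adjusted p of 0.362. Tet3 stood at 27.4 and 31.3, 41.1 and 35.0, and 39.0 and 34.1 CPM in the same order, so its groups overlapped. Its log2 ratio in OGT-KO was 0.20 (0.06 to 0.33; edgeR adjusted p = 0.363). Scaled by library totals it was 0.57 and passed (edgeR adjusted p = 0.0316).

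Bap1, the deubiquitinase itself, stood at 37.8 CPM in both libraries at 14 days, 36.4 and 36.7 in OGA-KO and control at 28 days, 62.2 in OGT-KO and 51.2 in OGT control. The OGA libraries were level with each other and both OGT libraries stood above them. The log2 ratio in OGT-KO was 0.28 (0.17 to 0.39; edgeR adjusted p = 0.0552). Scaled by library totals it was 0.65 and passed (edgeR adjusted p = 0.00312).

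Sin3a and Sin3b are the scaffolds of histone deacetylase complexes, and SIN3A binds OGT. Sin3a stood at 29.7 and 31.8 CPM in OGA-KO and control at 14 days, 36.6 and 31.2 at 28 days, 28.7 in OGT-KO and 36.9 in OGT control. Sin3b stood at 42.9 and 40.1, 39.2 and 40.3, and 28.8 and 23.0 CPM. Both OGT libraries were below every OGA library for Sin3b, whereas for Sin3a they bracketed the OGA range. In OGT-KO the log2 ratio of Sin3a was -0.36 (-0.50 to -0.22; edgeR adjusted p = 0.0893), which by library totals became 0.01. That of Sin3b was 0.32 (0.16 to 0.48; edgeR adjusted p = 0.0611). Scaled by library totals it was 0.69 and passed (edgeR adjusted p = 0.00464), and without a line term it turned to -0.17.

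Trak1, the other motor adaptor, fell. It stood at 84.9 and 80.5 CPM in OGA-KO and control at 14 days, 106 and 86.5 at 28 days, 70.3 in OGT-KO and 99.3 in OGT control. OGT-KO was the lowest of the 6 libraries and OGA-KO at 28 days the highest. The log2 ratio in OGT-KO was -0.50 (-0.59 to -0.41; edgeR SE 0.12, adjusted p = 0.0174), on 1963 counts against 2293. Scaled by library totals Trak1 stood at -0.13 with an edgeR adjusted p of 0.385, the DESeq2 Wald test gave an adjusted p of 0.122, and edgeR gave 0.156 with no line term and 0.0511 with no day term.

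**Figure D2:**
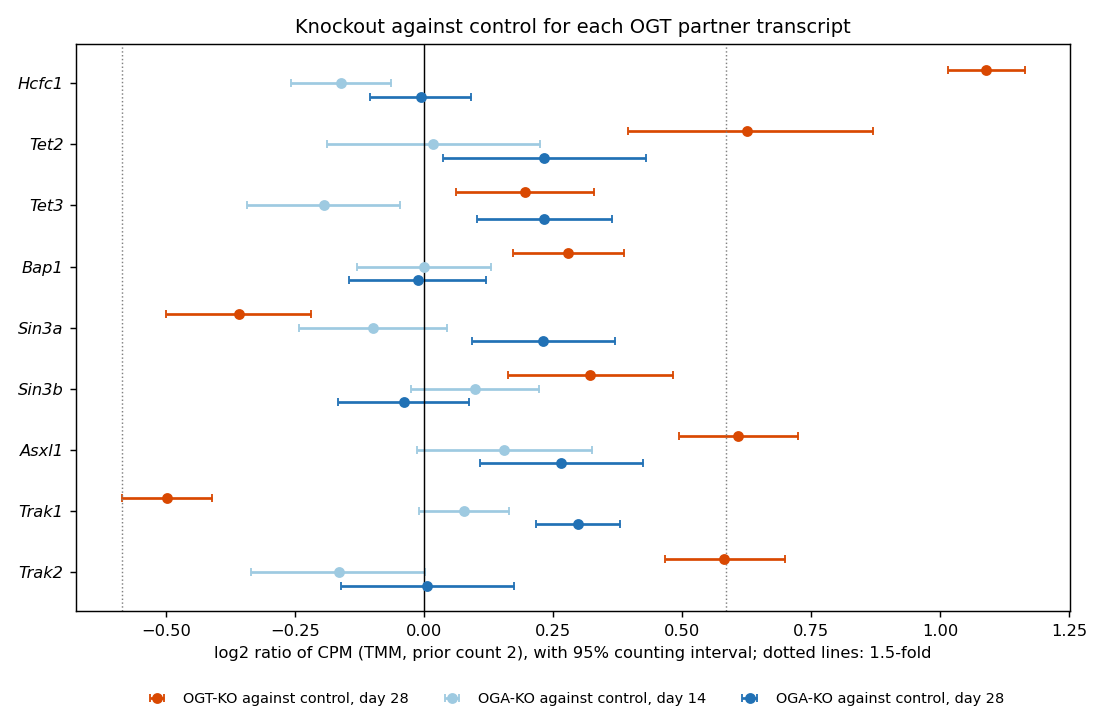
Points are log2 ratios of knockout over control for each member in the 3 pairs, bars are 95% counting intervals and dotted lines mark 1.5-fold. The OGT-KO points spread from -0.50 for Trak1 to 1.09 for Hcfc1, while all OGA-KO points lie between -0.19 and 0.30.

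The balance within the related pairs does not depend on how libraries are scaled to each other; these ratios were computed after the values above were seen. Per kilobase of merged exon, Trak2 had 0.52 of the level of Trak1 in OGA control at 14 days, 0.44 in OGA-KO at 14 days, 0.47 and 0.39 in OGA control and OGA-KO at 28 days, 0.72 in OGT control and 1.53 in OGT-KO. OGT-KO was the only library in which Trak2 exceeded Trak1. The ratio was 2.12-fold higher in OGT-KO than in its control (log2 1.08, 0.94 to 1.23), and lower in OGA-KO at 14 days (log2 -0.24, -0.43 to -0.05) and at 28 days (log2 -0.29, -0.48 to -0.11). Between both controls at 28 days it differed by a log2 of 0.62 (0.44 to 0.79).

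Tet2 per kilobase had 0.44 to 0.55 of the level of Tet3 in the OGA libraries, 0.29 in OGT control and 0.39 in OGT-KO. Sin3b had 0.785 to 1.06 of the level of Sin3a in the OGA libraries, 0.46 in OGT control and 0.73 in OGT-KO. In both pairs OGT control was the low library. The Tet2 to Tet3 ratio was 1.35-fold higher in OGT-KO than in its control (log2 0.43, 0.16 to 0.71). The Sin3b to Sin3a ratio was higher by a log2 of 0.68 (0.47 to 0.90). In OGA-KO the Sin3b to Sin3a ratio was higher at 14 days (log2 0.20, 0.01 to 0.39) and lower at 28 days (log2 -0.27, -0.46 to -0.08). Between both controls at 28 days it differed by a log2 of -1.05 (-1.26 to -0.84), more than in OGT-KO by size, with overlapping intervals. For Tet2 to Tet3 the gap between controls was -0.62 (-0.90 to -0.34), and the OGA-KO intervals included 0 at both times. Lengths are merged GENCODE M21 exons, 12568 bases for Trak1 and 7088 for Trak2, and the isoforms present in liver may be shorter.

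**Figure D3:**
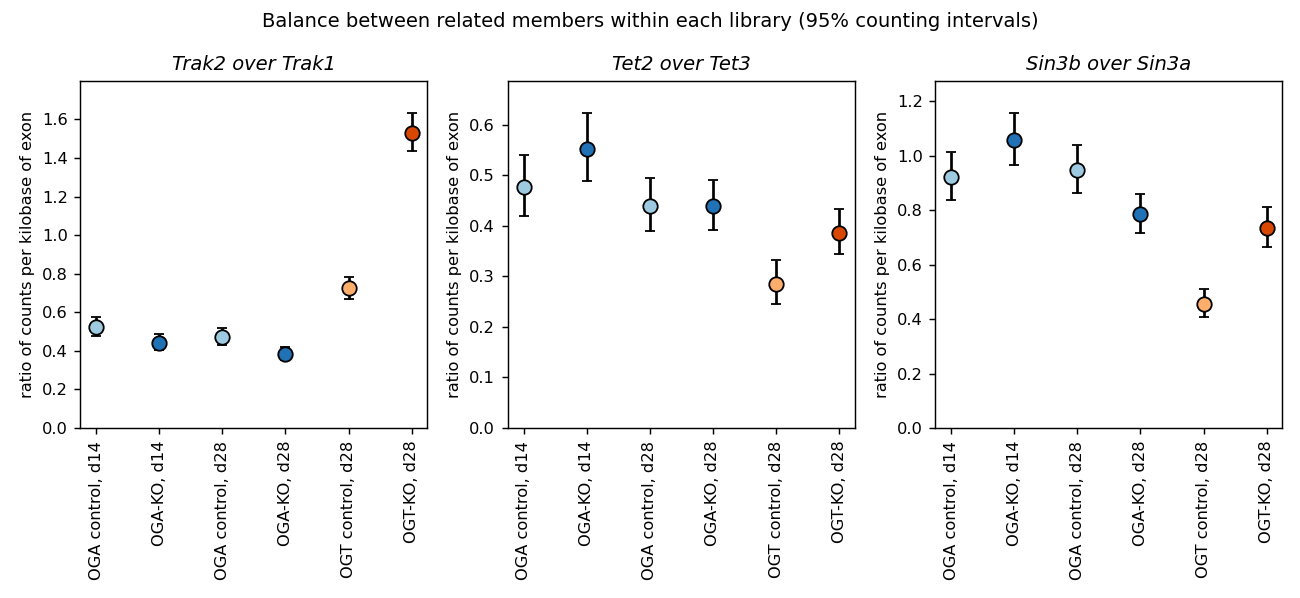
Each point is the count of the first gene over that of the second per kilobase of merged exon within 1 library, with 95% counting intervals; y axes start at 0. Trak2 over Trak1 is 1.53 in OGT-KO and 0.39 to 0.72 in the other 5 libraries.

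Per kilobase, Hcfc1 and Bap1 were the most abundant members in OGT control, at 10.4 and 10.9 CPM per kilobase, followed by Trak1 at 7.90 and Sin3a at 6.85. Trak2 and Asxl1 followed at 5.72 and 5.53, Sin3b at 3.13, Tet3 at 2.04 and Tet2 at 0.58. In OGT-KO Hcfc1 led at 22.1, Bap1 had 13.3, Trak2 8.57 and Asxl1 8.43, while Trak1 had 5.59, Sin3a 5.33 and Sin3b 3.91. Tet3 and Tet2 closed the order in every library. The other TET gene, Tet1, had no row in the table.

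The OGA-KO pairs ask the same of the enzyme that removes O-GlcNAc. No member passed edgeR over both times, where 4 of 12026 genes were called (0.0333%). By edgeR 1 member, Asxl1, had an unadjusted p under 0.05 (effect 0.21, SE 0.08, adjusted p = 0.363), as did 1560 of all genes. The DESeq2 Wald test called 0 members too. Past 1.5-fold were 0 of 9 members at 14 days and 0 at 28 days, against 4.63% and 8.56% of genes. At 14 days the ratios ran from -0.19 for Tet3 to 0.16 for Asxl1, with a median of -0.0003. The counting interval lay below 0 for 2 members, Tet3 (-0.34 to -0.05) and Hcfc1 (-0.16, -0.26 to -0.06), and above 0 for 0, against 14.8% and 16.9% of genes.

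At 28 days the members leaned upward. Trak1 had the highest ratio at 0.30 (0.22 to 0.38), followed by Asxl1 at 0.26 (0.11 to 0.42), Tet2 at 0.23 (0.04 to 0.43), Tet3 at 0.23 (0.10 to 0.36) and Sin3a at 0.23 (0.09 to 0.37). These 5 intervals lay above 0 and 0 lay below, against 22.2% and 20.3% of 11851 genes. The median of the members was 0.23 beside 0.004 for all genes. Hcfc1 (-0.01), Bap1 (-0.01), Sin3b (-0.04) and Trak2 (0.01) had intervals that included 0. The cell division genes summed to 30.9 CPM in this OGA-KO library and 38.4 in its control, and the macrophage markers to 172 and 139.0; their part in these ratios was not tested. Tet3 was on opposite sides of 0 at both times, with intervals that excluded it, a difference for which there is no test.

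Whether a member responded differently to loss of OGT and of OGA was tested as the difference of both effects, which passed for 44.1% of genes, 21.4% upward and 22.7% downward. Hcfc1 (1.17, edgeR adjusted p = 0.00216) and Trak2 (0.66, edgeR adjusted p = 0.0159) were higher with loss of OGT relative to loss of OGA, and Trak1 (-0.69, edgeR adjusted p = 0.0148) was lower. The other 6 members did not pass, Asxl1 having an edgeR adjusted p of 0.0585 and Tet2 of 0.0872. The Trak1 call was lost by library totals (-0.31, edgeR adjusted p = 0.123), and Asxl1 (0.0066), Bap1 (0.00772), Sin3b (0.0123) and Tet2 (0.0159) passed by edgeR adjusted p. By that scaling 6210 genes passed in place of 5301. With the DESeq2 Wald test or without the line term Hcfc1 alone passed.

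Ratios between control libraries give a yardstick for the values above. Between the OGA controls at 28 and 14 days the member ratios ran from -0.10 (Hcfc1) to 0.16 (Tet3), and 0 members were past 1.5-fold, against 4.03% of genes. The counting interval lay above 0 for 2 members and below it for 1, against 16.5% and 14.5%. Between OGT control and OGA control at 28 days they ran from -0.81 (Sin3b) to 0.81 (Trak2), with a median size of 0.48 beside 0.33 over all genes. There 4 members were past 1.5-fold, against 27.1% of genes: 2 higher (13.3% of genes) and 2 lower (13.8%). The counting interval lay above 0 for 6 and below it for 2, against 33.3% and 33.4%. Trak2 (0.81, 0.67 to 0.97) and Asxl1 (0.79, 0.65 to 0.95) were higher in OGT control, and Sin3b (-0.81, -0.96 to -0.66) and Tet2 (-0.65, -0.90 to -0.42) lower.

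Set against that gap, Hcfc1 differed more in OGT-KO (1.09) than between controls (0.38). For Sin3b the controls differed by more than knockout and control did. For Tet2, Bap1, Asxl1 and Trak2 the gap between controls was also the larger one, but the counting intervals of both sizes overlapped. Trak1 (-0.50 and 0.20) and Sin3a (-0.36 and 0.24) differed less between controls, with overlapping intervals for Sin3a. Tet3 differed more in OGT-KO (0.20) than between controls (-0.04), with overlapping intervals. By library totals these orders hold for Hcfc1, Tet3, Bap1, Asxl1 and Trak2 only. Scaled that way, Sin3b stood at 0.69 in OGT-KO and -0.58 between controls, and Tet2 turned likewise, while Trak1 (-0.13 and 0.42) and Sin3a (0.01 and 0.47) differed more between controls. Both comparisons share the OGT control library, and the line, its housing and its library preparation cannot be told apart between the controls.

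**Figure D4:**
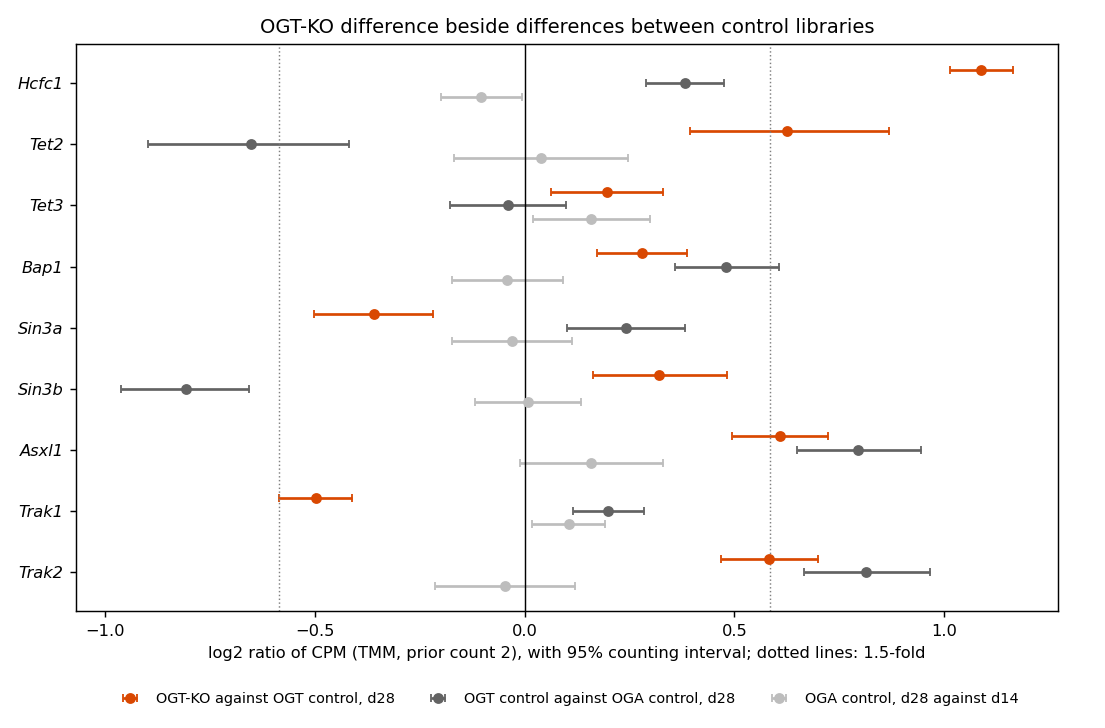
Points are log2 ratios of each member in OGT-KO over OGT control, in OGT control over OGA control at 28 days, and in OGA control at 28 over 14 days, with 95% counting intervals; dotted lines mark 1.5-fold. The dark grey points of OGT control over OGA control reach 0.81 for Trak2 and -0.81 for Sin3b, farther from 0 than every OGT-KO point except that of Hcfc1.

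The genes whose pattern over the 6 libraries was closest to that of Hcfc1, by distance in centred log2 CPM, were Mmp24 (distance 0.12), Anxa4 (0.13) and Nomo1 (0.16), among 10756 genes with at least 1 CPM in every library. Their log2 ratios in OGT-KO were 1.11, 1.11 and 1.03. Closest to Trak1, the member with the lowest ratio, were Ddah1 (0.14), Xdh (0.15) and Gpbp1 (0.17), with ratios of -0.49, -0.68 and -0.45. Nearness of pattern rests on 6 libraries, of which OGT-KO differs most.

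Other genes of the complexes these proteins join moved in both directions in OGT-KO. Of 111 listed genes in 7 groups, 104 had a row; 26 rose (25%) and 19 fell (18.3%) by edgeR, beside 26.1% and 26.6% of all genes, and their median log2 ratio was 0.06. In OGA-KO 0 passed edgeR. There 10 of the 104 had an unadjusted edgeR p under 0.05, beside 1560 of 12026 genes tested. The DESeq2 Wald test called 1, Gadd45g, risen, beside 36 of all genes. In OGT-KO 14 of the 104 were past 1.5-fold higher and 11 lower, against 24.8% and 22.2% of all genes with at least 1 CPM. By library totals 41 were higher and 6 lower, beside 4598 and 1490 of all genes. The edgeR calls shifted likewise, to 53 risen and 8 fallen by library totals, so their near balance depends on the scaling.

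The SIN3 and histone deacetylase group had 3 of 16 genes risen and 1 fallen, with a median of 0.19. Kdm5a, a histone demethylase (0.62), and Hdac1, a catalytic subunit (0.61), were its highest genes. Rbbp4, a histone chaperone, fell (-0.45), a call lost by library totals (-0.08), and Sap30l stood at -0.35. The BAP1 group held 12 genes: those of its complex, of Polycomb proteins that it opposes, and the H3K27 demethylase genes Kdm6a and Kdm6b. Of these 3 rose and 2 fell (median -0.09). The H3K27 demethylase gene Kdm6b (0.52) and the ubiquitin ligase gene Rnf2 (0.41) rose. Ring1, the relative of Rnf2, fell to 263 counts from 474 (-1.12), and Kdm1b fell too (-0.78).

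Of 17 genes of the SET1 and NSL complexes, which carry HCF1, 3 rose and 3 fell (median -0.03). Phf20 (0.77) and Mcrs1 (0.52), both NSL subunits, rose. Kat8, the acetyltransferase of that complex, fell from 431 to 214 counts (-1.28), and Men1, a subunit of related methyltransferases, fell from 759 to 392 (-1.22). Among 15 HCF1 binding factors 3 rose and 4 fell (median -0.22). E2f1, which drives entry into S phase, rose (1.04), as did Zfp143 (0.56). Mlxipl, the carbohydrate response factor ChREBP, fell from 15992 to 5414 counts (-1.84), and Hcfc1r1, an HCF1 regulator, fell (-1.04). The rise of E2f1 accompanied that of the cell division genes, all 9 of which rose, with Mki67 going from 125 to 1550 counts; their part in it was not tested.

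Of 14 genes of DNA methylation and its removal 3 rose and 4 fell (median 0.02). Gadd45b, a stress-induced gene, had 281 counts against 24 (3.18), and Dnmt1, the maintenance methyltransferase, 1326 against 470 (1.22). Idh1, which makes the 2-oxoglutarate that TET enzymes need, fell (-1.04), and Smug1, a base excision glycosylase, fell (-0.94). In mitochondrial transport 6 of 16 genes rose and 4 fell (median 0.23). Hap1, a motor-binding protein, had 299 counts against 34 (2.80) and Armcx3 rose (1.20), while Klc4, a kinesin light chain (-0.63), and Mfn2, which fuses mitochondria (-0.59), fell; by library totals they stood at -0.26 and -0.21 and did not pass. The Miro genes, whose proteins hold TRAK adaptors on mitochondria, did not pass: Rhot1 stood at 0.18 and Rhot2 at -0.34.

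Of 14 other OGT binding proteins 5 rose and 1 fell (median 0.23). Akt1, a kinase of insulin signalling (0.92), and Polr2a, the largest subunit of RNA polymerase II (0.73), rose. Ncor1, a corepressor, fell (-0.63), a call lost by library totals (-0.26), and the clock gene Per2 stood at -0.47 without passing. These lists were written with earlier results of the data known, and the medians have no test of their own. Scaled by library totals, the medians of the 7 groups ran from 0.15 to 0.60, beside 0.37 for all genes, and Rhot2 stood at 0.03. The BAP1, SET1 and HCF1 binding groups (0.28, 0.34 and 0.15) lay below the median of all genes. The other groups lay above it. The DESeq2 Wald test called 5 of the complex genes risen and 10 fallen, and edgeR without a line term 5 and 7. Gadd45b, Dnmt1, Hap1 and Akt1 rose and Ring1, Men1, Kat8, Idh1, Hcfc1r1 and Mlxipl fell under edgeR and under every alternative fit run.

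**Figure D5:**
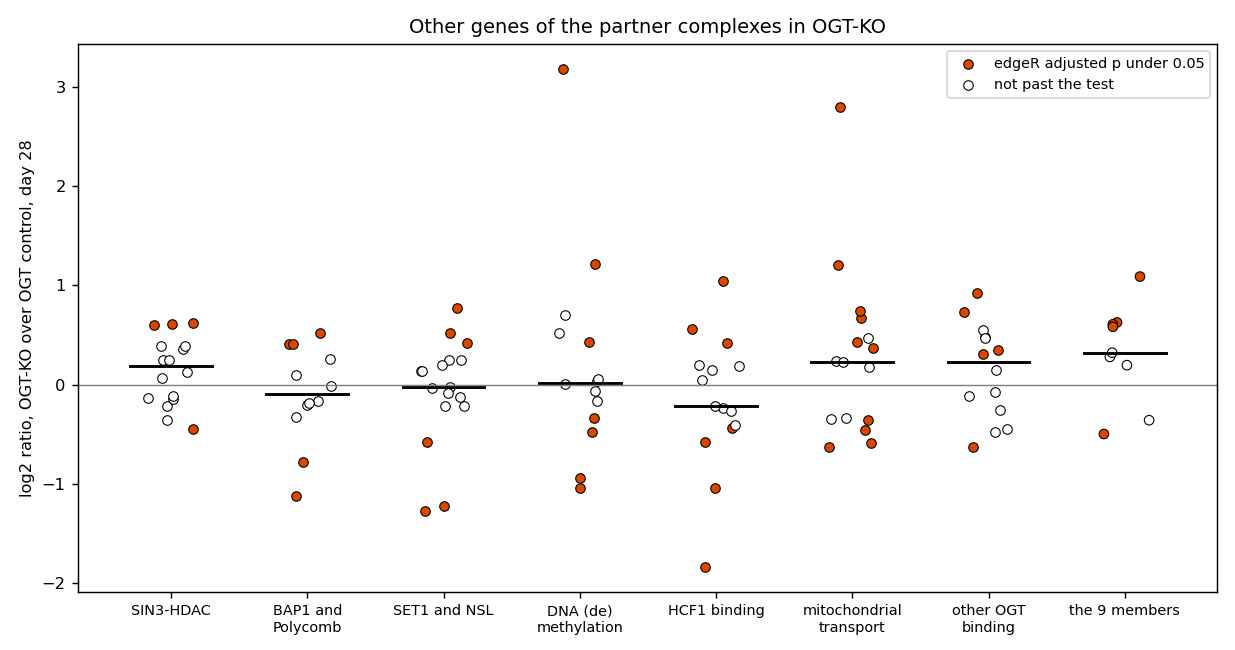
Each point is 1 gene, placed by its log2 ratio of OGT-KO over OGT control at 28 days; filled points passed edgeR, open points did not, black bars are medians, and the horizontal position within a group is arbitrary. Medians of the 7 groups lie between -0.22 and 0.23, and that of the 9 members is 0.32. By library totals the 7 medians run from 0.15 to 0.60 and that of the members is 0.69, beside 0.37 for all genes.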

How the data were processed

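The 6 libraries measure liver mRNA, 1 library per group. The count table deposited by the authors held raw counts, keyed by Ensembl ID, with the lanes of a library in 1 column; STAR, Subread, edgeR and build mm39 are named in the submitters' processing notes, with no versions or settings. The normalised table deposited by the authors held CPM without a composition factor; it served as a check of the columns. Its divisor matched the column total in the OGA libraries and exceeded it in the OGT libraries (20591467 against 20433100 for OGT-KO). The filter behind the rows is not given in the sources used here. A count of 0 allows up to 3 counts, or 0.102 to 0.147 CPM.

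Symbols came from GENCODE M21 (GRCm38) by Ensembl ID and matched 12019 of 12027 rows; no coordinates of the files are given. Shared exon bases with other genes were 3.96% for Sin3a, 2.65% for Asxl1 and 0.255% for Tet2, all on the opposite strand, and 0 for the others. Whether counting used strand is not given in the sources used here. Promoter sequences are RefSeq's.

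Ratios used TMM sizes from edgeR 4.0.16 under R 4.3.3. The quasi-likelihood fit by edgeR modelled 5 coefficients: an intercept, the line, the day and 1 for each knockout. It used filterByExpr and Benjamini-Hochberg adjustment over 12026 genes; SE is the effect over the root of F. Alternatives were library totals, DESeq2 size factors, no filter, the DESeq2 1.42.0 Wald test, fits without the line or day term, the 4 OGA libraries alone, prior counts of 0.5 and 10, 2-fold and 5 CPM. Members and lists were chosen with earlier results of these data known. Named besides the members were Ogt, Oga, Mki67 and other markers, the 2 highest and 2 lowest genes of each list in OGT-KO, and the 3 nearest patterns of the extreme members; Rhot1, Rhot2 and Gadd45g were added after their values were seen.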

Additional observations from a re-analysis of the deposited data

Results flagged for a closer look

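The difference between the OGT-KO effect at 28 days and the OGA-KO effect over 14 and 28 days passed edgeR for 3 members. It was 1.17 on the log2 scale for Hcfc1, 0.66 for Trak2 and -0.69 for Trak1, in a comparison where 44.1% of all genes passed. The Trak1 difference was -0.31 by library totals and no longer passed (edgeR adjusted p = 0.123). With the DESeq2 Wald test or without the line term, the calls of Trak1 and Trak2 were lost. The direction of the ratios was higher in 1 of 1 OGT-KO pair for Hcfc1 and Trak2, and lower for Trak1. Tet3 had an OGA-KO ratio of -0.19 at 14 days and 0.23 at 28 days, on opposite sides of 0; this difference was not tested, since each time has 1 library a group. No group had enough libraries for a search for outlying samples.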

How the results depend on the processing

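Results are limited first by 1 library per group. In OGT-KO, edgeR called 3134 genes risen and 3198 fallen; by library totals it called 5334 risen and 1862 fallen. The DESeq2 Wald test called 2902 genes (1211 risen, 1691 fallen) and edgeR without the line term 3035 (1616 and 1419), each with 1 member in place of 5. The difference of both knockout effects had 3 members and 5301 genes called. By library totals it had 6 members (Trak1 lost, 4 gained) and 6210 genes. With DESeq2 it had 1 member and 2066 genes, and without the line term 1 member and 2766 genes. For OGA-KO 4 genes were called: 2 with DESeq2 size factors, 36 with the DESeq2 Wald test, 0 without the line term (259 at an unadjusted p under 0.05), 1 without the day term and 2 in the 4 OGA libraries alone; 0 members were called in any of these. At 2-fold in place of 1.5-fold, OGT-KO had 1937 genes higher and 1383 lower and 1 member higher; by library totals at 1.5-fold it had 4598, 1490 and 6. OGA-KO had 99 genes at 14 days and 304 at 28 days at 2-fold, and 157 and 504 at 5 CPM. Of the complex genes 41 were past 1.5-fold higher and 6 lower in OGT-KO by library totals, in place of 14 and 11. The cause of these shifts was not tested. Among single members' tests, 15 calls were lost, 7 gained and 149 kept their side of the threshold over all fits. The 149 include tests with no call to lose, among them every OGA-KO test, so they do not measure how stable the calls are. No paired analysis was possible because each group holds 1 library and no replicate numbers are shared; OGA-KO and control were compared within each day through the day term.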
